A study of Homo sapiens with 50 samples.

Results

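The first 5 population doublings of a pooled short hairpin RNA (shRNA) screen in aging fibroblasts were described by setting the tags of each hairpin at population doubling 45 (PD45) against those at population doubling 40 (PD40). Hairpins entered where either column held at least 10 tags, which left 3420 of the 3443 hairpins in the table. The 23 left out held at most 8 tags in either column. The samples were genomic DNA of IMR90, a line of human lung fibroblasts that divides a limited number of times, grown at 3% oxygen. All cells carried a lentiviral vector, delivered at a multiplicity of infection of 0.3, and no other treatment is named. The groups PD40 (labelled as the proliferating control) and PD45 each comprised 10 plates, and the same plates were sampled again at PD50, PD55 and PD60. The deposited table held 1 pooled column per population doubling, so no value below has a replicate, and no difference could be tested against the spread between plates. The PD40 column held 8626437 tags and the PD45 column 8782622.

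A short hairpin RNA is processed by the cell into a small interfering RNA that lowers the messenger RNA it matches. Because the vector integrates into the genome, the hairpin's own DNA serves as a tag of the cell and its descendants. Hairpins whose cells divide more than their neighbours come to hold a larger share of the tags, and hairpins whose cells stop dividing or die come to hold a smaller one. Several hairpins were made per gene because a single hairpin can also act on messages other than its target. The question behind the screen was which chromatin regulators cut short the dividing life of these cells. Fibroblasts that reach that limit enter replicative senescence, a lasting arrest of division. Whether these cells carry and express each target, and how far each hairpin lowered it, was not analysed here. Agreement among the hairpins of a gene therefore does not by itself show an effect of losing that gene.

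Most hairpins held a smaller share of the tags at PD45 than at PD40. Tags were scaled by their column total to counts per 1000000 (CPM), 1 CPM was added, and the log2 of the PD45 value over the PD40 value is the difference given below. It understates the difference for hairpins with few tags. The median hairpin stood at -1.63 (SD over hairpins 1.66), a share 3.21-fold lower, with quartiles of -2.91 and -0.44. Of the 3420 hairpins, 196 (5.73%) were over 2-fold higher at PD45, 2163 (63.2%) were over 2-fold lower and 1061 (31.0%) lay within 2-fold. The split depended on the scale. Column totals were used here, while trimmed mean of M values (TMM) scaling put 24.6% higher and 36.3% lower, and scaling to the non-targeting hairpin put 24.2% higher and 37.5% lower. Counted from the median hairpin, 29.2% were over 2-fold above it and 30.4% over 2-fold below it. The median hairpin moved to -0.24 under TMM and to -0.29 under the non-targeting hairpin. Families are therefore given as their difference from the median hairpin, and gene means, which are on the column-total scale, are to be read against its -1.63.

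The tags were gathered into fewer hairpins within these 5 doublings. The 196 higher hairpins held 10.8% of the tags at PD40 and 35.3% at PD45, while the 2163 lower ones went from 35.8% to 9.14%. At PD40, 282 hairpins held 50% of the tags, and at PD45 109 hairpins did. The 10 most abundant hairpins held 9.40% at PD40 and 17.5% at PD45. Judged by Shannon entropy, a measure of how evenly shares are spread, the tags at PD40 were spread as over 1308 equal hairpins. At PD45 the like number was 594. No tag was found at PD45 for 38 hairpins, the most abundant of which, against the protease gene CTSL1, had 260 tags at PD40 and was at least 88.2-fold lower against a floor of 3 tags.

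How many tags a hairpin held at PD40 moved with its difference. Across 5 equal bins of PD40 tags, from the least to the most abundant, the median was -2.87, -2.43, -1.56, -1.07 and -0.43. The share over 2-fold higher ran from 1.46% in the lowest bin to 11.4% in the highest, and the share over 2-fold lower from 90.7% to 31.9%. All 38 hairpins without a tag at PD45 were in the lowest bin, which spanned 1 to 333 tags at PD40. The hairpin's place in the vendor's catalogue moved with the difference as well: over 44 blocks of 1000 consecutive catalogue numbers holding at least 20 hairpins each, the block median ranged from -2.47 to -0.19. The part of abundance and catalogue block in any gene's value was not tested, and family values are given also against the median of hairpins of like PD40 abundance. Shares of a family's hairpins are to be read against the 63.2% lower and 5.73% higher over all hairpins.

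The non-targeting hairpin, which matches no human message, held 4562 tags at PD40 and 1775 at PD45, 2.62-fold lower (95% counting interval 2.48 to 2.77). It stood at the 55.3 percentile of all hairpins, but at -0.95 from the median of hairpins of like PD40 abundance. Lamin B1 (LMNB1), a protein of the nuclear lamina whose loss accompanies senescence, was the design's control for faster senescence. Its 5 hairpins went from 7808 to 12770 tags, 4652 to 5757, 6031 to 5522, 3881 to 1149 and 2187 to 304. The first and second were higher and the last pair over 2-fold lower, so the hairpins against this control did not move one way. Of the 5, 3 lay above the median hairpin. Their mean of -0.76 (SD 1.49 over 5 hairpins) lay above it as well, but the mean difference from hairpins of like PD40 abundance was -0.20.

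Hairpins against 1 gene differed among themselves nearly as widely as all hairpins did. Over the 631 genes with at least 3 measured hairpins, the gene means had a median of -1.63 and an SD of 0.83, while the median SD within a gene was 1.53. A gene mean stood above 0 for 14 genes. At least 1 hairpin over 2-fold higher was found for 162 genes, at least 2 for 25 genes (3.96%) and at least 3 for 3 genes (0.475%). Every measured hairpin was over 2-fold lower for 82 genes (13%), and no hairpin was over 2-fold lower for 7 genes (1.11%). For 159 genes, 1 hairpin or more was over 2-fold higher and another over 2-fold lower. Of the 515 genes with exactly 5 hairpins, 63 had all 5 over 2-fold lower and 5 had none.

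ZMYND8, a bromodomain and PHD finger protein that binds acetylated and methylated histones, had the highest mean of the 631 genes, 0.62 (SD 0.71, 5 hairpins). Its hairpins went from 5917 to 15603 tags, 11663 to 23024, 9125 to 16895, 1531 to 2053 and 4608 to 3329. The first 4 gained share and the fifth lost less than the median hairpin did, so all 5 lay above it. MBD6, a methyl-CpG binding domain protein of the deubiquitinase complex that acts on histone H2A, had a mean of 0.42 (SD 0.99). Its hairpins went from 2221 to 6504 tags, 4187 to 9073, 3920 to 6441, 2359 to 1924 and 1384 to 769, and again all 5 lay above the median hairpin. BRD9, the bromodomain subunit of a noncanonical SWI/SNF complex, stood at 0.07 (SD 0.69), with 3 hairpins above 0, none of them over 2-fold higher, and 1 over 2-fold lower.

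Whether a hairpin lies above or below the median hairpin hardly depends on how the columns are scaled. By that measure 25 of the 631 genes (3.96%) had every hairpin above it and 33 (5.23%) had every hairpin below it. Besides ZMYND8, MBD6 and BRD9, the first group held SETD6, a lysine methyltransferase, and the nucleosome assembly proteins NAP1L1 and NAP1L2. It also held the BET reader BRD3, the PRC2 partner JARID2, the H3K4 methyltransferase MLL3, the corepressor scaffold SIN3A and the kinase IKBKB. In this group the spread among hairpins was often small. That follows in part from how the group was chosen, since it left out every gene with a hairpin below the median hairpin. The 5 MLL3 hairpins ranged from -0.84 to 0.25 (mean -0.46, SD 0.44), and the 4 hairpins against BRPF1, a scaffold of histone acetyltransferase complexes, ranged from -1.17 to -0.99 (mean -1.11, SD 0.09). Of the 4 BRPF1 hairpins, 3 were over 2-fold lower. Against hairpins of like PD40 abundance the MLL3 mean lay at 1.03 and the BRPF1 mean at -0.24. All 9 hairpins against CDY1, a chromodomain protein of the testis, lay above the median hairpin (mean -0.09), and 2 of these 9 had tags that matched within sampling noise in all columns. Whether these cells carry CDY1 was not analysed here.

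Genes with at least 2 hairpins over 2-fold higher often had others that were lower. FKBP5, an immunophilin and cochaperone of steroid receptors, had hairpins that went from 4799 to 21749 tags, 629 to 1592, 760 to 1635, 774 to 444 and 388 to 65 (mean 0.25, SD 1.86). CIITA, the coactivator of class II histocompatibility genes, had hairpins that went from 10 to 127 tags, 2340 to 7197, 2102 to 4471, 1103 to 530 and 457 to 95 (mean 0.45, SD 2.04). Each had 3 hairpins over 2-fold higher, as had CHMP4A, a subunit of the ESCRT-III membrane machinery, among 10 hairpins of which 5 were over 2-fold lower. The lowest FKBP5 and CIITA hairpins were over 2-fold lower. The CIITA hairpin with 10 tags at PD40 had a ratio of 12.5 with a wide counting interval of 6.57 to 26.6.

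The BET bromodomain proteins read acetylated histones. BRD3 stood at -0.21 (SD 1.28), with 1 hairpin over 2-fold higher and 2 lower, and BRDT at -1.24 with 3 of 5 lower. BRD2 stood at -1.57, where 4 hairpins were over 2-fold lower and the other went from 7500 to 22352 tags. The BRD2 hairpins that were lower started from 29 to 209 tags.

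On the lower side, NPM1, the nucleolar phosphoprotein and histone chaperone nucleophosmin, stood at -3.95 (SD 1.08). Its hairpins went from 1179 to 224 tags, 729 to 50, 414 to 22, 399 to 7 and 583 to 8, and the least changed of the 5 was 5.36-fold lower. RPA3, the small subunit of the single-strand DNA binding protein used in replication and repair, stood at -3.30 with a small spread among hairpins (SD 0.51). Its hairpins went from 1214 to 196 tags, 430 to 47, 822 to 71, 837 to 63 and 136 to 1. RPA1, the large subunit of the same protein, had 4 of 4 hairpins over 2-fold lower and a mean of -2.70.

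The number of genes with every hairpin lower depended on the scale, since the median hairpin was itself below the 2-fold line. With column totals taken without the 50 most abundant hairpins, 48 genes had every hairpin lower. Under TMM, 6 genes did, among them HDAC7, HDAC10, MTA2, RPA3 and SOX12. Under DESeq2 size factors it was HDAC7 and HDAC10, and with the median hairpin set to 0 it was HDAC10 alone. Scaled to the non-targeting hairpin there were 9, adding NPM1, the histone gene HIST1H3C and the tropomyosin gene TPM1 to those of TMM. On the higher side the count moved the other way, from 25 genes with at least 2 hairpins over 2-fold higher to 231 under TMM and 224 under the non-targeting hairpin.

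The zinc-dependent histone deacetylases remove acetyl groups from histones and other proteins. Of 54 hairpins against 11 genes, 37 (68.5%, against 63.2% of all hairpins) were over 2-fold lower and 3 (5.56%, against 5.73%) higher, and the family median lay 0.81 below the median hairpin, at -2.44. HDAC7 (mean -3.52, SD 0.61) and HDAC10 (-3.23, SD 0.49) had every hairpin lower, as did HDAC6 (-2.91, SD 0.45), a mainly cytoplasmic deacetylase of tubulin. Every hairpin was lower for 13% of all 631 genes. The means of HDAC7, HDAC10 and HDAC6 lay at -1.003, -0.804 and -0.481 against hairpins of like PD40 abundance. The HDAC10 hairpins went from 515 to 74 tags, 1403 to 212, 226 to 12, 313 to 18 and 368 to 22. The nuclear enzymes HDAC1 and HDAC2 stood higher, at -0.88 (SD 2.54) and -0.96 (SD 1.21). HDAC1 held 1 of the largest gains, a hairpin that went from 1871 to 15295 tags, beside 3 hairpins that were over 2-fold lower. HDAC8 stood at -0.37 with 1 hairpin higher and 1 lower. Against hairpins of like PD40 abundance the family lay only 0.10 below, and its median hairpin had 731 tags at PD40. Against hairpins of the same catalogue block it lay at -0.002.

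The CHD helicases and the NuRD complex, which pairs a remodelling helicase with deacetylases, had 54 of 75 hairpins (72.0%) over 2-fold lower and 3 higher. Their median lay 0.63 below the median hairpin and 0.06 below hairpins of like PD40 abundance. Every hairpin was lower for 5 of the 15 genes (against 13% of all 631 genes), namely MTA2, MTA3, MBD2, MBD3 and CHD8. Against hairpins of like PD40 abundance their means lay at -1.39, -0.09, 0.64, -0.31 and -0.90 in that order. Of the 5 MBD2 hairpins, 3 lay above the median hairpin. The MTA2 hairpins went from 138 to 22 tags, 1261 to 186, 429 to 42, 342 to 18 and 1451 to 26 (mean -3.46, SD 1.22). The NuRD helicase CHD4 stood at -1.19, above the median hairpin, with 2 of 5 hairpins over 2-fold lower.

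The SWI/SNF remodelling complex had 43 of 64 hairpins (67.2%, against 63.2% of all) over 2-fold lower and 4 (6.25%, against 5.73%) higher. Its median lay 0.34 below the median hairpin and 0.11 below hairpins of like abundance. The core subunit SMARCB1 stood apart at -3.24 (SD 1.04), with all 8 of its hairpins over 2-fold lower. Low means were also found for the ATPase SMARCA4 (-2.51), ARID1A (-2.51) and the core subunits SMARCC1 (-2.45) and SMARCC2 (-2.43). SMARCE1 was low as well (-2.70, 2 of 3 hairpins lower), but lay at -0.12 against hairpins of like PD40 abundance. The subunits SMARCD1 (-0.22), SMARCD2 (-0.59) and PBRM1 (-0.88), the polybromo subunit, stood above the median hairpin.

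Polycomb complexes silence developmental genes, PRC2 by methylating histone H3 at lysine 27 and PRC1 by ubiquitinating histone H2A. Of 43 PRC2 hairpins 29 (67.4%, against 63.2% of all) were over 2-fold lower and 3 higher. The family lay 0.13 below the median hairpin but 0.03 above hairpins of like abundance. The catalytic subunit EZH2 had 7 of 8 hairpins lower (mean -3.09, SD 2.03), ranging from a hairpin that went from 5260 to 4909 tags to 1 that went from 1252 to 18. SUZ12 had 4 of 5 lower (-2.29). EED, another core subunit, had 2 hairpins higher and 2 lower (-0.75, SD 2.61), and JARID2 stood at -0.34 (SD 0.51). Of 105 PRC1 hairpins 66 (62.9%) were over 2-fold lower and 6 (5.71%) higher, near the shares over all hairpins, with a median 0.35 below the median hairpin and 0.08 below hairpins of like abundance. Every hairpin was lower for 1 of the 21 PRC1 genes, against 13% of all genes. That gene, CBX6 (-2.89), lay at -0.28 against hairpins of like PD40 abundance. BMI1 and CBX7 had 4 of 5 lower, and the E3 ligase subunit RNF2 stood at -0.31 with 1 higher and 1 lower. The PRC1 share of all tags nevertheless went from 3.88% to 6.15%. A single PHC1 hairpin that went from 87434 to 291409 tags was the most abundant hairpin at PD45, while the other 4 PHC1 hairpins were over 2-fold lower.

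Histone chaperones, which carry histones to and from DNA, spanned almost the whole range of gene means. Of 114 hairpins 69 (60.5%) were over 2-fold lower and 7 (6.14%) higher, near the 63.2% and 5.73% of all hairpins. Their median lay 0.03 above the median hairpin and 0.09 above hairpins of like abundance. NPM1 was at the low end, followed by HIRA (-3.37), which deposits the histone variant H3.3 and had 5 of 6 hairpins lower. NAP1L2 (0.05) and NAP1L1 (-0.02) were at the high end. The FACT chaperone, which opens nucleosomes ahead of polymerases, has the subunits SSRP1 and SUPT16H, whose median hairpins stood at -3.40 and -3.34. SSRP1 had all 5 hairpins lower (mean -3.24, SD 0.96), going from 510 to 125 tags, 671 to 109, 197 to 11, 470 to 23 and 278 to 6. SUPT16H had 3 hairpins lower, from 247 to 17, 92 to 1 and 109 to 0, another nearly level from 371 to 401, and the largest gain of all 3420 hairpins, from 1150 to 19767 (16.9-fold, 95% counting interval 15.9 to 17.9).

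Genes of DNA replication and mitosis had 50 of 67 hairpins (74.6%, against 63.2% of all) over 2-fold lower and 2 (2.99%, against 5.73%) higher. Their median lay 0.65 below the median hairpin, but 0.17 above hairpins of like PD40 abundance, and the family's median hairpin had 366 tags at PD40. The topoisomerase TOP1 (-3.25) and the origin recognition subunits ORC1L (-2.76) and ORC2L (-2.74) had every hairpin lower, as did 13% of all genes. Against hairpins of like PD40 abundance their means lay at -0.74, 0.11 and -0.49 in that order. The polymerase clamp PCNA (-2.43) and the mitotic kinase AURKB (-2.40) had 4 of 5 lower. Genes of DNA damage signalling and repair had 43 of 57 hairpins (75.4%) lower and 4 (7.02%) higher. Their median lay 0.42 below the median hairpin and 0.52 below hairpins of like abundance. There RPA3, PARP1 (-2.71), which senses DNA breaks, and RPA1 had every hairpin lower. Against hairpins of like PD40 abundance the means of these genes lay at -1.31, -0.46 and -0.55 in that order.

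RET, a receptor tyrosine kinase represented by 15 hairpins, was the lowest family. Its median lay 1.17 below the median hairpin and 1.21 below hairpins of like PD40 abundance, and 14 of 15 hairpins were over 2-fold lower. The exception went from 1475 to 1795 tags. The most abundant RET hairpins at PD40 went from 24333 to 2129 and from 21681 to 5726 tags, and 2 of the 15 had tags that matched within sampling noise in all columns. The ADAR enzymes, which edit adenosine to inosine in RNA, had 12 of 15 hairpins lower, 0.36 below the median hairpin and 0.99 below hairpins of like abundance. The subunits of PI3 kinase lay 0.17 above the median hairpin but 0.74 below hairpins of like abundance. Of their 54 hairpins 33 (61.1%) were over 2-fold lower, near the 63.2% of all hairpins.

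Against the median hairpin, the families that lay highest were those of histone kinases, H2A and high mobility group proteins, while against hairpins of like abundance the H3 lysine 4 methyltransferases with the menin complex lay highest, at 0.55. Histone kinases had 5 of 38 hairpins over 2-fold higher and 18 lower, 0.72 above the median hairpin and 0.27 above hairpins of like abundance. Canonical H2A histones had 5 of 42 higher and 20 lower, 0.65 above the median hairpin and 0.38 above hairpins of like abundance. H2A variants had 12 of 28 lower and none higher, at 0.67 and 0.23. High mobility group proteins, which bend DNA or bind nucleosomes, had 5 of 60 higher and 30 lower, at 0.67 and 0.51. HMGN1, which binds nucleosomes, had 4 of 5 hairpins above 0, going from 6937 to 14316 tags, 1496 to 2401, 1944 to 2452 and 3277 to 3817, and the last from 156 to 30 (mean 0.01). H2B histones, the partners of H2A in the nucleosome, lay 0.26 below the median hairpin, with 49 of 69 (71.0%) lower and 1 higher, and 0.21 below hairpins of like abundance. Of the 38 families, 23 lay above and 15 below the median hairpin.

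Enzymes that methylate lysines of histones H3 and H4 were grouped by the residue they act on. The group acting on H3 lysine 36, H3 lysine 79 and H4 lysine 20 had 5 of 38 hairpins higher and 21 lower, 0.47 above the median hairpin and 0.52 above hairpins of like abundance. The H3 lysine 4 group and its menin complex, with 4 of 97 higher and 54 lower, lay 0.27 and 0.55 above. The H3 lysine 9 group with HP1 proteins lay 0.60 above the median hairpin but 0.35 below hairpins of like abundance. PRDM proteins had 9 of 59 higher (15.3%), with a median 0.28 above the median hairpin and as far above hairpins of like abundance. Lysine demethylases lay 0.20 below the median hairpin but 0.06 above hairpins of like abundance, with 72 of 103 hairpins (69.9%) lower and 3 higher. Every hairpin was over 2-fold lower for 5 of the 21 genes, among them JARID1D (-3.43), against 13% of all 631 genes. Whether these cells carry JARID1D was not analysed here. The H3 lysine 4 demethylase AOF2 (-0.50) had 1 of 5 lower.

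The acetyltransferases p300 (EP300) and CBP (CREBBP) are related coactivators that acetylate histone H3 at lysine 27. EP300 hairpins were among the most abundant already at PD40. Of 8, those starting from 123277, 6163, 88949 and 9816 tags went to 230115, 11498, 124367 and 11291, and those starting from 8343, 3404, 942 and 895 went to 4060, 828, 135 and 69. The first 4 were higher by less than 2-fold and the last 4 over 2-fold lower (mean -0.88, SD 1.74). CREBBP had 1 hairpin higher, from 4167 to 13442 tags, and the others went from 289 to 172, 519 to 48, 84 to 1 and 215 to 6 (mean -1.91, SD 2.34). The family lay 0.57 above the median hairpin but 0.40 below hairpins of like abundance.

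Kinases and factors of the NF-kappaB pathway, which drives inflammatory genes, also lay on both sides. The kinase subunits IKBKB (-0.47) and CHUK (-0.09) and the factor NFKB1 (-0.22) stood above the median hairpin. The factor NFKB2 (-3.22) and the inhibitor NFKBIA (-2.11) had every hairpin lower, as did 13% of all genes. Against hairpins of like PD40 abundance the NFKB2 mean lay at -1.02 and the NFKBIA mean at 0.20. The NFKB2 hairpins went from 3605 to 795 tags, 298 to 31, 465 to 48, 227 to 10 and 383 to 13. Over the family 30 of 50 hairpins (60.0%, against 63.2% of all) were over 2-fold lower and 5 higher, 0.03 above the median hairpin and 0.36 above hairpins of like abundance.

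The largest gains were carried by single hairpins. After the SUPT16H hairpin came 1 against HBB, the beta chain of hemoglobin, from 2902 to 42804 tags (14.5-fold). MAF, a leucine zipper transcription factor, had a hairpin that went from 10778 to 132139, and STK4, a kinase of the Hippo pathway, had 1 that went from 612 to 7128 (11.4-fold). The methyltransferase ASH1L had 1 that went from 11845 to 92730 (7.69-fold), and the transcription factor GATA3 had 1 that went from 5314 to 37941 (7.01-fold). The other 4 ASH1L hairpins were lower, the other 3 STK4 hairpins were over 2-fold lower, and without its gaining hairpin STK4 lay below the median hairpin. When tags were summed over a gene, 40 genes (6.34%) were over 2-fold higher, of which 27 had 1 hairpin over 2-fold higher. In these 40 the leading hairpin held a median of 86.2% of the gene's tags at PD45.

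Among the largest losses, a hairpin against vimentin (VIM), the intermediate filament of fibroblasts, went from 1210 to 6 tags (205-fold lower, 95% counting interval 94.1 to 561). The other 4 VIM hairpins went from 1040 to 2689, 1255 to 2135, 1716 to 1644 and 2016 to 1758 and were all above the median hairpin. Losses of a hairpin against ARID3B (1136 to 14 tags), CHD5 (878 to 7), CHAF1A (1682 to 26), HAT1 (794 to 10) and SIRT5 (589 to 6) were of 65.9-fold to 128-fold. CHD5, EZH2 and MTA2 had both a hairpin among the 10 lowest and nearly all others over 2-fold lower.

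The hairpins that were higher at PD45 did not all go on gaining. In the interval from PD50 to PD55, which shares no column with the first, 41 of 2415 measured hairpins (1.7%) were over 2-fold higher and 1951 (80.8%) over 2-fold lower. Of the 196 higher at PD45, 195 were measured there, 13 (6.67%) were over 2-fold higher and 135 (69.2%) lower. Of the 2163 lower at PD45, 1169 were still measured, 7 (0.599%) were higher and 955 (81.7%) lower. In the last 3 columns, PD50 to PD60, the HBB hairpin held 193229, then 693439 and then 122170 tags. The HDAC1 hairpin instead held 7799, 2777 and 9, and the FKBP5 hairpin that gained most held 9156, 950 and 80. The leading ZMYND8 hairpin held 13679, 8682 and 1645 tags, and all 5 ZMYND8 hairpins were lower at PD60 than at PD45.

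Hairpins that the table assigns to several genes at once, many of them near-identical copies such as histone genes, numbered 187. Their median was -1.48, 5 (2.67%) were over 2-fold higher and 110 (58.8%) lower. They were left out of the gene values.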

How the data were processed

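Values were whole-number counts of sequence tags, deposited by the authors with 1 column for each of 5 population doublings. The submitters' processing notes name Bowtie 1.0.1 without its role; how tags of the 10 plates were joined is not stated in the labels. Counts were scaled here to CPM by column total. Differences used a pseudocount of 1 CPM. Ratios carry exact 95% conditional binomial intervals; PCR copies were not marked with molecular identifiers, and therefore these intervals and the floor of 3 tags cover counting error only. Gene values are means over hairpins naming only that gene, with the SD over hairpins, which are not replicates.

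Members, the 38 families and lists were chosen with earlier results of these data known. Named genes were LMNB1, the non-targeting hairpin, EP300, CREBBP, the 12 highest and 12 lowest means among genes with agreeing hairpins (at least 2 over 2-fold higher or 3 above the median hairpin, or at least 3 over 2-fold lower and none higher), up to 4 genes per family farthest from the median hairpin, and the 10 highest and 10 lowest hairpins. Others were chosen after their values were seen. Some genes the rule took are not reported here.

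The RefSeq table of assembly GRCh38.p14 holds 530 of the 644 gene names as current symbols, 106 as an older name of 1 gene and 6 of several, and lacks 2; names are printed as in the table. Calculations used Python 3.11.15, numpy 2.4.6, pandas 2.3.3 and scipy 1.17.1, and were tested on simulated data. Alternative scale factors came from edgeR 4.0.16 and DESeq2 1.42.0 in R 4.3.3; no count model was fitted. Hairpin sequences were not used here.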

Additional observations from a re-analysis of the deposited data

How the results depend on the processing

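The counts of hairpins depended on scaling. Against 196 hairpins over 2-fold higher, 2163 over 2-fold lower and a median of -1.63, TMM gave 843, 1241 and -0.24, DESeq2 size factors 1004, 1119 and -0.024, and the non-targeting hairpin 827, 1283 and -0.29. Totals without the 50 most abundant hairpins gave 311 higher and a median of -1.30, and a pseudocount of 10 CPM gave a median of -1.20. Setting the median hairpin to 0, chosen after seeing the data, gave 997 higher and 1041 lower. Genes with at least 2 hairpins higher went from 25 to 231 (TMM), 289 (DESeq2 size factors), 224 (non-targeting hairpin), 55 (without the 50) and 287 (median hairpin). Genes with every hairpin lower went from 82 to 6, 2, 9, 48 and 1 in that order, and to 44 with the pseudocount of 10. The cause was not tested.

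Of 11 families at least 0.5 from the median hairpin, 8 kept their sign over 12 settings. Of 101 named genes over 2-fold from it, 97 did over 13 settings. TMM, DESeq2 size factors and the non-targeting hairpin only rescaled the columns. Values were counted from each setting's own median hairpin, so under these the sign could hardly turn. Many of the genes were also named because they lay far from the median hairpin. The settings are therefore not independent checks. A kept sign is not a kept size: the deacetylases went from -0.81 to -0.16 over gene means and -0.002 against their catalogue block, and the CHD and NuRD family from -0.63 to -0.06 against hairpins of like PD40 abundance. Against hairpins of like PD40 abundance the sign turned for p300 and CBP (-0.40), H3K9 methylation and HP1 (-0.35), DNA replication and mitosis (0.17), BRD7 (-0.095), ORC1L (0.11) and ING1 (-0.063). STK4 turned to -0.12 without its farthest hairpin. The causes were not tested.

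No paired analysis was possible because the 10 plates share 1 column. A hairpin with 10 tags at PD40 has a counting interval several-fold wide, so agreement among rare hairpins rests on few tags.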
